A study of Mus musculus with 8 samples.

Results

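The immunoglobulin heavy chain V segments (gene symbols starting Ighv) were described in mouse kidney RNA. Members were all Ighv genes with at least 10 counts in total over the 8 libraries, and 70 of the 42256 genes in the count table met that rule. The reference annotation lists 185 Ighv segments. Of these, 175 were in the table, 76 of them had 0 counts in every library and 29 had 1 to 9 counts. The members just inside the minimum, at 10 counts, were Ighv15-2, Ighv1-47, Ighv1-62-2 and Ighv1-77, and Ighv2-6 and Ighv1-43 lay just outside at 9 counts. All 70 members are annotated as functional V genes, and no annotated V pseudogene reached the minimum.

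The libraries came from whole kidneys of adult male mice on a mixed 129S1/Sv x C57BL/6 background, 4 labelled CDH11+/+ and 4 labelled CDH11-/-. Every mouse in both groups had received aristolochic acid, a plant toxin that injures the renal tubule, at 3 mg/kg daily for 5 days, and was killed 2 weeks after the last dose. No uninjured kidney was analysed here, so every value below is from injured tissue. Cdh11 encodes cadherin-11, a cell adhesion protein. The series title names a different kidney injury from the one in the labels, and the labels were followed. Nothing in the labels names litters or batches, and each library was taken as 1 mouse.

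An antibody heavy chain gene is put together in each developing B cell by joining 1 V segment, 1 D segment and 1 J segment, and the joined gene is transcribed with a constant region gene such as Ighm or Igha. B cells carry the antibody on their surface, and plasma cells secrete it at very high mRNA levels, so a few plasma cells can supply most of the immunoglobulin RNA of a tissue. Counts on an Ighv gene therefore report which V segments were in use in the B lineage cells that the kidney piece held. In bulk RNA, more cells using a segment and more RNA per cell cannot be told apart.

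The targeted gene was measured first. Cdh11 stood at 75.5, 58.0, 61.6 and 58.9 CPM (counts scaled to library size and TMM factors) in the libraries labelled CDH11+/+ replicates 1 to 4, and at 89.7, 91.2, 112 and 117 CPM in those labelled CDH11-/-. Its level was thus higher, not lower, in the libraries labelled CDH11-/- (log2 difference 0.69 ± 0.11 SE, edgeR quasi-likelihood adjusted p = 0.0243). Under the authors' own scaling the difference was 0.26 with limma (adjusted p = 0.524), and the call also ended when any of 5 libraries was left out (adjusted p up to 0.113). The labels do not describe the allele, so a count over the whole gene does not check the labels, and each direction below is between libraries as labelled. Total counts ranged from 10675309 to 18539479 per library.

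The V exon sequences of 6 segments are shown because the results turn on them. The first 4 are the segments that passed the test, Ighv1-34 was the highest segment in 1 library labelled CDH11-/-, and Ighv5-17 was the highest in 2 labelled CDH11+/+ and did not pass. Each is the coding V exon of the GENCODE M21 transcript (GRCm38, minus strand of chromosome 12), and capitals mark the bases that differ from the segment with the most similar V exon. The last 300 bases of each exon are printed, which leaves out the first 12 bases of Ighv8-12 and the first 5 of the others. The most similar segments are Ighv1-85, Ighv1-80, Ighv1-64, Ighv8-9, Ighv1-22 and Ighv5-15 in the order printed.
Ighv1-81: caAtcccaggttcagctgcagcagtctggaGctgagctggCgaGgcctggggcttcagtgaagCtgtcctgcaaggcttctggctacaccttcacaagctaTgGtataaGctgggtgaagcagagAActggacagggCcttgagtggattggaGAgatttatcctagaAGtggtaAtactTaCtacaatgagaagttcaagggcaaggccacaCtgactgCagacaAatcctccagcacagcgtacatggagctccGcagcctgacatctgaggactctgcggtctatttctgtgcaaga
Ighv1-82: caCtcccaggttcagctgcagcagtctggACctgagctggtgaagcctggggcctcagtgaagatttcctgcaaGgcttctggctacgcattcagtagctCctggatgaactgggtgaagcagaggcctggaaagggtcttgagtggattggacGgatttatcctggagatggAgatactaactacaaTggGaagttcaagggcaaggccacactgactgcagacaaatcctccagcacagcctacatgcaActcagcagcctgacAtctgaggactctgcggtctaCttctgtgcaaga
Ighv1-55: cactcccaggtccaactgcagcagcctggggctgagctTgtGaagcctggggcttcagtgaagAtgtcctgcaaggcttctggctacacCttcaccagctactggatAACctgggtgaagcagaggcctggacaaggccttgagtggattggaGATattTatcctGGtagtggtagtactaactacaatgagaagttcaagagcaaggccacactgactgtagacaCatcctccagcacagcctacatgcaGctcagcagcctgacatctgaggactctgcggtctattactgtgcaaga
Ighv8-12: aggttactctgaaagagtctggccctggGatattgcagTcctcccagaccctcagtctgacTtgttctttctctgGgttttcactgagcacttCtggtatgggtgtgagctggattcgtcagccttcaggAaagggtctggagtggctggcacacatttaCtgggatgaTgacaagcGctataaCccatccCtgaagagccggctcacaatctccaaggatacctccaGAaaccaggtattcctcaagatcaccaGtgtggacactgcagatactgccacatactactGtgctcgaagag
Ighv1-34: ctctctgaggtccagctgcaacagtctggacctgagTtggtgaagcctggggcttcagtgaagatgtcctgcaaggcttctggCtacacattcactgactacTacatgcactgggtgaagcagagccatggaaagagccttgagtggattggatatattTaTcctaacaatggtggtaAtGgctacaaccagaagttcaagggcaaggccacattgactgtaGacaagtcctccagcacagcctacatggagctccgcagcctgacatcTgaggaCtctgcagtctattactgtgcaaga
Ighv5-17: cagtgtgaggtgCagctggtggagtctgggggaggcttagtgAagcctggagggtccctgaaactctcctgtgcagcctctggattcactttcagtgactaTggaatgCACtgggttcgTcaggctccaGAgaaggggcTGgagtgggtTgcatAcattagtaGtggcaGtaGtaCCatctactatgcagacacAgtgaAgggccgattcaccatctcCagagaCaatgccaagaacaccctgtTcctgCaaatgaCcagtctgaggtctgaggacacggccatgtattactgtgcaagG
Over the whole exon, Ighv1-81 differs from its nearest segment at 22 bases (92.8% identity), Ighv1-82 at 12 (96.1%), Ighv1-55 at 15 (95.1%) and Ighv8-12 at 16, of which 15 are in the printed stretch (94.9%). The longest stretch that Ighv1-81 shares with Ighv1-85 is 43 bases. The 3 family 1 segments among them are 88.5% to 90.5% identical to each other, beside a median of 85.6% over all pairs of the 39 family 1 members, and Ighv8-12 is 51.9% to 55.4% identical to those 3. The 4 printed stretches lie at chr12:115920279-115920578, chr12:115952538-115952837, chr12:115208095-115208394 and chr12:115647945-115648244 in the order printed.

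Reads of near-identical segments can be split or lost between them, and rearranged V exons also carry mutations, so single segments are reported as the authors' counting assigned them. The mice were of mixed strain background, and strains can carry different V segments at this locus. Reads from segments that differ from the reference could be assigned to another segment or to none, and whether the groups differed in haplotype here was not tested. This bears on every value of a single segment, family or zone below. Over the 70 members the identity of the V exon to the nearest other segment had a median of 95.4%, and 18 members had another segment at 97% identity or more. Ighv1-62-2 is identical to Ighv1-71 over its whole V exon, and Ighv1-72 is 99.0% identical to Ighv1-62-3, so their counts are uncertain. The letters tgtgcaaga, which hold the codon of the conserved second cysteine, were found on the coding strand in the last 12 bases of the V exon of 41 of the 70 members, and of 51.3% of the 113 annotated V gene segments. Ighv1-81, Ighv1-82, Ighv1-55 and Ighv1-34 end with them, while Ighv8-12 and Ighv5-17 do not hold them.

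The summed V segment level was higher in each kidney labelled CDH11-/- than in any labelled CDH11+/+. Members had 34, 27, 677 and 328 counts together in CDH11+/+ replicates 1 to 4, and 2160, 2097, 2055 and 1155 in CDH11-/- replicates 1 to 4. Scaled by depth that was 3.13, 2.05, 53.5 and 25.3 CPM against 145, 135, 108 and 87.4 CPM. The 2 groups did not overlap, with means of 20.98 ± 24.2 and 119 ± 26.2 CPM (SD, n = 4), a 5.67-fold ratio of means or 2.50 on the log2 scale. The spread within CDH11+/+ was as large as its mean, because replicates 1 and 2 were far below replicates 3 and 4. Against CDH11+/+ replicates 3 and 4 alone the ratio was 3.02-fold, and without CDH11+/+ replicate 3 it was 3.55 on the log2 scale. No test was made of the summed level.

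**Figure D1:**
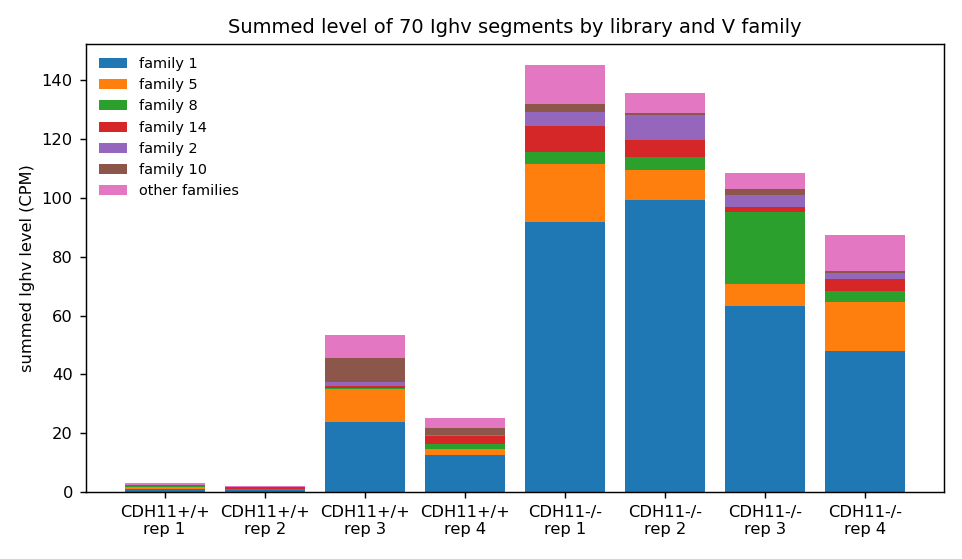
Summed level of the 70 Ighv members (vertical axis, CPM) in each of the 8 libraries (horizontal axis), with the V families stacked in colour. CDH11+/+ replicates 1 and 2 stand at 3.13 and 2.05 CPM, CDH11+/+ replicate 3 reaches 53.5 CPM, and the 4 libraries labelled CDH11-/- stand between 87.4 and 145 CPM.

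More segments were seen in the libraries labelled CDH11-/-. At least 1 count fell on 17, 12, 51 and 41 of the 70 members in CDH11+/+ replicates 1 to 4 and on 63, 66, 66 and 63 in CDH11-/- replicates 1 to 4. With at least 3 counts required, 2 to 39 members were present per CDH11+/+ library and 54 to 62 per CDH11-/- library. Of the 70 members, 52 had a count in all 4 libraries labelled CDH11-/- and 2, Ighv10-1 and Ighv1-64, in all 8 libraries. In the libraries labelled CDH11+/+, 11 members were at 0 throughout and 19 more had 1 to 3 counts in all, while no member was at 0 throughout the libraries labelled CDH11-/-. These counts of members are a description: 87.5% of member counts came from the libraries labelled CDH11-/-, so the minimum of 10 counts was met mainly through them.

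The number of segments seen moved with the number of Ighv counts. Libraries were thinned to 27 Ighv counts, the total of the lowest, and at this equal number the groups overlapped. The expected number of segments was then 15.0, 12, 15.3 and 16.4 in CDH11+/+ and 17.7, 16.7, 15.5 and 18.1 in CDH11-/-. Thinned to 328 counts, which only 6 libraries reached, it was 44.7 and 41.0 in CDH11+/+ replicates 3 and 4 and 50.5 to 53.6 in CDH11-/-. The thinned values were given no test. Absence of a segment from CDH11+/+ replicates 1 and 2 could not be told from too few Ighv counts. In total counts, replicate 1 had 10675309, the fewest of the 8 libraries, and replicate 2 had 13885009, the most of the CDH11+/+ libraries. The part of sequencing depth was not tested.

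Counts were spread over many segments in each library with many Ighv counts, and the leading segment differed between mice. The effective number of segments (inverse Simpson index, the number of equally used segments that would give the same concentration) was 11.6, 5.40, 14.3 and 18.8 in CDH11+/+ and 23.0, 17.3, 13.0 and 24.9 in CDH11-/-, and the groups overlapped. A second effective number, the exponential of Shannon entropy, was 13.9, 8.03, 24.0 and 25.8 against 34.9, 30.5, 26.1 and 36.6, without overlap. Neither index was taken at an equal number of Ighv counts, and neither was tested. The highest segment was Ighv5-17 in CDH11+/+ replicate 3, with 16.2% of its Ighv counts (exact Clopper-Pearson 95% interval 13.5% to 19.2%), and Ighv1-53 in CDH11+/+ replicate 4, with 13.1% (9.65% to 17.3%). In the sparse CDH11+/+ replicates 1 and 2 it was Ighv5-17 with 6 counts and Ighv14-2 with 10 counts. Among the libraries labelled CDH11-/- it was Ighv1-9 in replicate 1 with 10.2% (8.94% to 11.5%), Ighv1-34 in replicate 2 with 15.9% (14.4% to 17.6%), Ighv1-81 in replicate 3 with 18.2% (16.6% to 20.0%) and Ighv1-53 in replicate 4 with 10.2% (8.53% to 12.1%). The 8 libraries thus had 6 different leading segments. These intervals cover counting error only, since reads without molecular identifiers are not independent molecules.

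In the fit over all genes, 21 of the 70 members had enough counts to be tested, and 4 passed an adjusted p of 0.05, each higher in the libraries labelled CDH11-/-: Ighv1-81, Ighv1-82, Ighv1-55 and Ighv8-12. Over all 15852 genes tested, 0.372% were called higher and 0.347% lower. A member reached the filter mainly through counts in the libraries labelled CDH11-/-, so the share of tested members that passed is not read as support. Fitted with a total of 10 counts as the filter, which tests all 70 members, 7 were called higher and 0 lower, against 0.343% of 19818 genes called higher. The 3 added, which were named after their values were seen, were Ighv1-15 (0, 0, 2 and 0 counts against 10, 20, 58 and 11), Ighv1-22 (0, 0, 1 and 0 against 27, 11, 9 and 20) and Ighv1-36 (1, 2, 0 and 0 against 22, 35, 40 and 3). In that fit the median log2 difference of the 70 members was 3.30, beside a median near 0 (-0.0035) over all genes. The minimum of 10 counts shapes both this median and the next, since 30 of the 70 members had 0 to 3 counts in CDH11+/+, and neither is read as support. From pooled counts, with members at 0 in CDH11+/+ set at the bound that 3 counts give, the median log2 ratio was 2.85.

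Ighv1-81, a family 1 segment near the far end of the cluster, had the most counts of any member, 954, and the highest level per kilobase of exon. It had 1, 1, 4 and 0 counts in CDH11+/+ replicates 1 to 4 and 213, 262, 375 and 98 in CDH11-/- replicates 1 to 4, or 0.121 ± 0.136 against 14.6 ± 5.29 CPM (SD, n = 4). Every library labelled CDH11-/- was far above every library labelled CDH11+/+ (log2 difference 6.82 ± 0.54 SE, edgeR adjusted p = 0.00114). As a share of Ighv counts it was 2.94% (exact 95% interval 0.0744% to 15.3%) and 3.70% (0.0937% to 18.97%) in CDH11+/+ replicates 1 and 2, whose few counts leave intervals that reach into the range of CDH11-/-. In CDH11+/+ replicate 4 it had 0 of 328 Ighv counts, which allows a share of up to 0.915% (3 counts), and in CDH11+/+ replicate 3 it had 0.591% of 677 (0.161% to 1.51%). In the libraries labelled CDH11-/- its share was 9.86%, 12.5%, 18.2% and 8.48%.

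Ighv1-82, the next expressed family 1 segment on the far side of Ighv1-81, had 0, 0, 1 and 1 counts in CDH11+/+ and 33, 54, 71 and 25 in CDH11-/-. The depth-scaled pooled ratio was 72.6 (exact 95% counting interval 19.8 to 604), and the fitted log2 difference was 5.86 ± 0.56 SE (edgeR adjusted p = 0.00114). Ighv1-55 had 1, 0, 1 and 1 counts against 31, 73, 53 and 18, a pooled ratio of 46.3 (15.6 to 227) and a fitted log2 difference of 5.31 ± 0.63 SE (edgeR adjusted p = 0.00414). Both segments thus had 1 count each in CDH11+/+ replicates 3 and 4, which held 677 and 328 Ighv counts. The 34 and 27 Ighv counts of CDH11+/+ replicates 1 and 2 were too few to show a low share.

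Ighv8-12, of the small family 8, had 2, 1, 0 and 1 counts against 21, 43, 121 and 22, with a log2 difference of 5.12 ± 0.77 SE (edgeR adjusted p = 0.0207). Its call ended when CDH11+/+ replicate 2, 3 or 4 was left out (edgeR adjusted p = 0.0813, 0.0504 and 0.104) and when replicates 1 and 2 were both left out (0.0823). Ighv1-81, Ighv1-82 and Ighv1-55 stayed past the threshold under all 18 alternatives that were run.

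**Figure D2:**
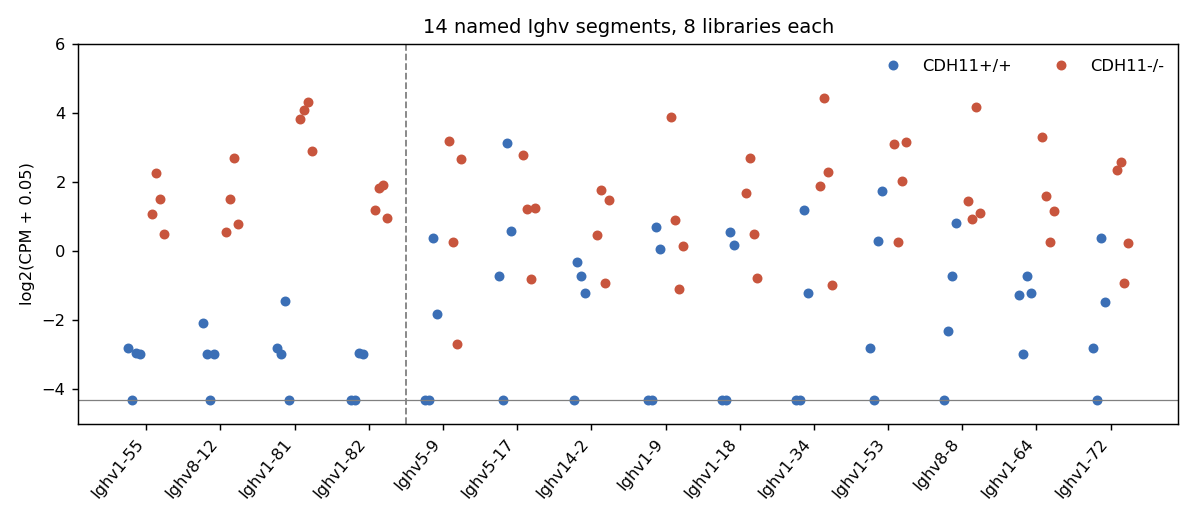
Level of 14 named Ighv segments (vertical axis, log2 of CPM plus 0.05) in each library labelled CDH11+/+ (blue) and CDH11-/- (red), in order of position within each part. Points on the grey line are at 0 counts, and the 4 segments left of the dashed line passed the test. Among the other 10, the red and blue points overlap for all but Ighv8-8 and Ighv1-64.

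The other highly counted segments mostly varied from mouse to mouse. Ighv1-34 had 0, 0, 28 and 5 counts in CDH11+/+ and 54, 334, 92 and 6 in CDH11-/-, with a log2 difference of 3.52 ± 1.43 SE (edgeR adjusted p = 0.346). The value of 334 came from CDH11-/- replicate 2, and CDH11-/- replicate 4 lay within the CDH11+/+ range. Ighv8-8 had 0, 2, 7 and 22 counts against 40, 29, 345 and 28, a log2 difference of 3.34 ± 1.21 SE (adjusted p = 0.290), and most of its counts were from CDH11-/- replicate 3. Ighv1-9 had 0, 0, 20 and 13 counts against 220, 28, 8 and 14 (adjusted p = 0.463), and most of its counts were from CDH11-/- replicate 1. Ighv1-53, high in both groups, had 1, 0, 15 and 43 counts against 128, 18, 77 and 118 (log2 difference 2.26 ± 1.05 SE, adjusted p = 0.396).

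Ighv1-64, counted in all 8 libraries, had 4, 1, 7 and 5 counts against 147, 46, 22 and 29 and did not overlap between groups, but did not pass in the same fit (log2 difference 3.52 ± 0.83 SE, edgeR adjusted p = 0.116). DESeq2 called it and Ighv1-26, named here after its values were seen, in addition to the 4 (1.63% of genes called higher by that tool), and edgeR with no filter on low counts called 9 members (0.458% of genes called higher). Ighv5-9 (0, 0, 16 and 3 against 136, 18, 2 and 84), Ighv1-18 (0, 0, 18 and 14 against 47, 100, 26 and 7), Ighv1-72 (1, 0, 16 and 4 against 76, 92, 9 and 15) and Ighv14-2 (0, 10, 7 and 5 against 20, 52, 9 and 36) had higher means with overlapping groups. Ighv5-17 went apart from them, with 6, 0, 110 and 19 counts against 102, 35, 10 and 31 and a log2 difference of 0.14 ± 1.23 SE (edgeR adjusted p = 0.974). Its sign turned when CDH11-/- replicate 1 was left out (-0.68), and without CDH11+/+ replicate 3 the value was 2.12.

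Over the 70 members, pooled CPM were higher in the libraries labelled CDH11-/- for 65 and lower for 5. Every library labelled CDH11-/- was above every library labelled CDH11+/+ for 25 members, and the reverse held for 0. Among genes with at least 10 counts, 3.28% were separated upward and 3.46% downward. Members met the minimum of 10 counts mainly through the libraries labelled CDH11-/-, so neither these counts nor the 65 and 5 are read as support. The 5 members lower in pooled CPM, named after their values were seen, were Ighv4-1, Ighv13-2, Ighv10-1, Ighv1-20 and Ighv1-39. Ighv4-1 was lower in pooled CPM only, with a ratio of 0.970, and its mean was 1.06 CPM in CDH11+/+ against 1.11 in CDH11-/-. Ighv10-1 had 1, 1, 96 and 24 counts against 32, 11, 34 and 7, Ighv1-39 had 0, 0, 55 and 16 against 28, 5, 34 and 13, and Ighv4-1 had 0, 1, 43 and 10 against 3, 47, 1 and 15. In each of these 3 CDH11+/+ replicate 3 had the highest CPM of the 8 libraries. None of the 5 was called, and Ighv13-2 and Ighv1-20 had too few counts to be tested in the reported fit. Of the 11 members at 0 in the libraries labelled CDH11+/+, Ighv5-16 (9, 20, 67 and 12 counts in CDH11-/-) was at least 28.6-fold higher. Ighv9-1 (38, 1, 0 and 32) was at least 18.8-fold higher, and Ighv2-9 (27, 5, 26 and 1) at least 15.6-fold. Ighv1-85 (12, 17, 7 and 0) was at least 9.52-fold higher. These folds are from counts pooled over each group, against a floor of 3 counts over the 4 libraries. Ighv9-1 and Ighv1-85 were also at 0 in a library labelled CDH11-/-, so their groups overlapped. None of these members was called in the fit with a total of 10 counts as the filter, where Ighv5-16 had an edgeR adjusted p of 0.0556. With no filter on low counts Ighv5-16 was called (edgeR adjusted p = 0.0392). The other 7 had 10 to 21 counts in CDH11-/-. All 11 reached the minimum of 10 counts through the libraries labelled CDH11-/- alone, so the minimum itself sets a lowest fold for them.

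V segments fall into families by sequence, which the number before the dash names. Family 1, the largest of the mouse (the J558 family), held 39 of the 70 members and 61.3% of member counts. Its summed level was 1.11, 0.83, 23.9 and 12.7 CPM in CDH11+/+ and 91.8, 99.0, 63.4 and 47.8 CPM in CDH11-/-, a 7.83-fold ratio of means without overlap. As a share of Ighv counts it was 46.1% of the pooled CDH11+/+ counts and 63.4% of the pooled CDH11-/- counts. The shares per library were 35.3%, 40.7%, 44.8% and 50.3% against 63.3%, 73.1%, 58.5% and 54.7%, so that each library labelled CDH11-/- had the larger share, although the exact 95% intervals of some single libraries overlapped. Family and position in the cluster are not separate groupings, as given with the zones below.

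Family 8 (Ighv8-8 and Ighv8-12) had mean levels of 0.684 ± 0.743 and 9.27 ± 10.2 CPM, a 13.6-fold ratio without overlap, and CDH11-/- replicate 3 alone stood at 24.6 CPM. Family 2 (Ighv2-2, Ighv2-3, Ighv2-4, Ighv2-6-8, Ighv2-9 and Ighv2-9-1) had means of 0.517 ± 0.595 and 4.82 ± 2.67 CPM and family 3 (Ighv3-6 and Ighv3-8) 0.332 ± 0.397 and 2.11 ± 0.986 CPM, and neither overlapped. Family 5 (with 7 members) had means of 3.47 ± 5.08 and 13.5 ± 5.75 CPM and overlapped through CDH11+/+ replicate 3, at 11.0 CPM. Family 14 (Ighv14-2, Ighv14-3 and Ighv14-4) stood at 0.983 ± 1.05 against 5.07 ± 2.99 CPM and overlapped through CDH11+/+ replicate 4, at 2.46 CPM. Of the 27 Ighv counts of CDH11+/+ replicate 2, 11 were on family 14.

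The remaining families were small. Means were 0.321 and 2.84 CPM for family 9 (Ighv9-1 and Ighv9-3), 0.794 and 2.20 for family 6 (Ighv6-3 and Ighv6-6), 0.138 and 0.594 for family 7 (Ighv7-1 and Ighv7-3) and 1.06 and 1.11 for family 4 (Ighv4-1), with overlapping groups. Family 15 (Ighv15-2) had 10 counts, all from 2 libraries labelled CDH11-/-. Mean levels were lower in the libraries labelled CDH11-/- for 2 families, family 10 (Ighv10-1 and Ighv10-3, 2.60 against 1.61 CPM) and family 13 (Ighv13-2, 0.434 against 0.258 CPM), both with overlap. Family 10 made up 12.4% of pooled CDH11+/+ Ighv counts and 1.39% of pooled CDH11-/- Ighv counts, and 101 of its CDH11+/+ counts were from replicate 3. Families 11, 12 and 16 had no member.

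The V cluster spans 2.44 Mb of chromosome 12 (chr12:113572927-116010093, GRCm38), with the D, J and constant genes beyond its low-coordinate end, and the annotated segments were parted into 4 zones of like number by their order from that end. Zones 1, 2 and 3, with 18, 17 and 14 members, had 4.13-fold, 2.97-fold and 4.49-fold higher mean levels in the libraries labelled CDH11-/-. The groups overlapped in zones 1 and 2 through CDH11+/+ replicate 3, at 16.4 and 15.9 CPM, but not in zone 3. In zone 4, farthest from the constant genes and with 21 members, the level was 0.83, 0.379, 5.93 and 3.85 CPM in CDH11+/+ and 49.2, 54.4, 61.3 and 29.1 CPM in CDH11-/-, a 17.7-fold ratio of means. Against CDH11+/+ replicates 3 and 4 alone the ratios of the 4 zones were 2.24, 1.57, 2.31 and 9.93. All 4 called segments lie in zone 4, where 7 members were tested, beside 4, 5 and 5 in zones 1, 2 and 3, while the 3 added in the fit of all 70 members lie in zone 3.

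Zone 4 held 26.5% (exact 95% interval 12.9% to 44.4%), 18.5% (6.3% to 38.1%), 11.1% (8.81% to 13.7%) and 15.2% (11.5% to 19.6%) of the Ighv counts of CDH11+/+ replicates 1 to 4. It held 33.98% (32.0% to 36.0%), 40.2% (38.1% to 42.3%), 56.6% (54.4% to 58.8%) and 33.3% (30.6% to 36.1%) of those of CDH11-/- replicates 1 to 4. The groups did not overlap, although the intervals of CDH11+/+ replicates 1 and 2 reached into the range of CDH11-/-. Without Ighv1-81 the shares were 24.2%, 15.4%, 10.5% and 15.2% against 26.8%, 31.7%, 46.9% and 27.2%, and the fold of the mean levels was 12.9. The difference between zones was noticed in these data and was given no test, and segments that share a cell or a clone are not independent.

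**Figure D3:**
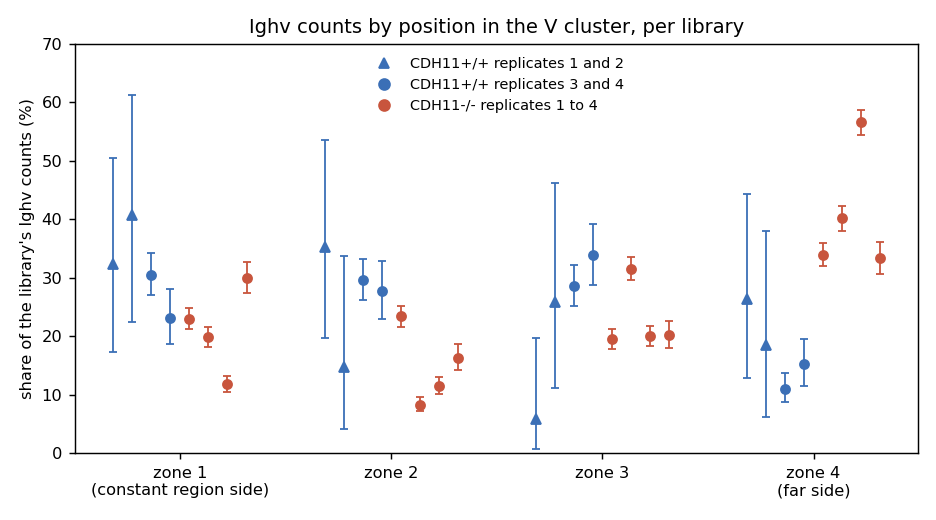
Share of each library's Ighv counts (vertical axis, percent) in each of 4 zones of the annotated V segments, in order from the constant region side (horizontal axis). Bars are exact 95% intervals, which are wide for the 34 and 27 counts of CDH11+/+ replicates 1 and 2 (triangles). In zone 4 the libraries labelled CDH11-/- (red) lie between 33.3% and 56.6%, above the CDH11+/+ libraries (blue), at 11.1% to 26.5%.

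**Figure D4:**
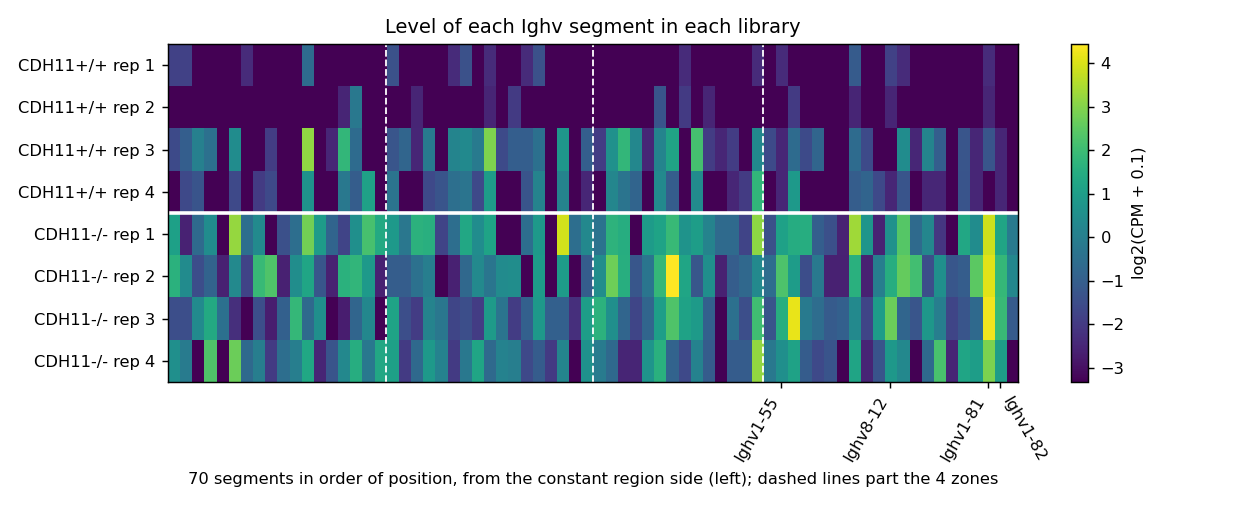
Level of the 70 members (columns, in order of position from the constant region side) in the 8 libraries (rows), as log2 of CPM plus 0.1, with the called segments named under their columns. The 2 top rows are nearly empty, and the brightest cells lie in different columns in different libraries except for Ighv1-81, which is bright in the 4 rows of CDH11-/-.

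Genes beside the V cluster were read from the same fit. Of the genes without an immunoglobulin name within 1 Mb of its ends, 27 were tested and 3 passed, or 11.1% beside 0.719% of all genes called in either direction. All 3 lie on the constant region side, where 22 were tested, and they were named after their values were seen. Ahnak2 was higher by 0.75 ± 0.14 SE on the log2 scale (edgeR adjusted p = 0.0373), Crip2 was higher by 0.31 ± 0.06 (adjusted p = 0.0488) and Clba1 fell by 0.96 ± 0.13 (adjusted p = 0.00794). None of the 5 tested genes on the far side, next to zone 4, was called.

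The constant region genes show which antibody classes the V segments could have been joined to. Igha, the IgA constant region, was at 21.9, 9.71, 376 and 125 CPM in CDH11+/+ and at 685, 922, 914 and 717 CPM in CDH11-/-, without overlap, and did not pass the test (log2 difference 2.60 ± 1.08 SE, edgeR adjusted p = 0.355). Ighg2b (2.56 ± 0.84, adjusted p = 0.259), Ighg2c (2.07 ± 0.98, 0.407) and Ighg1 (2.02 ± 1.15, 0.492), which encode IgG subclasses, had differences of like size that also did not pass. Ighg2b did not overlap between groups, while Ighg2c and Ighg1 did. Ighg2c was at 36.9 CPM in CDH11+/+ replicate 4 and 28.5 CPM in CDH11-/- replicate 4. Ighg1 was at 34.8 CPM in CDH11-/- replicate 1 but at 3.16 to 6.52 CPM in the rest of that group, against 7.74 CPM in CDH11+/+ replicate 3. Ighm, the IgM constant region of naive B cells among others, stood at 57.6 to 143 CPM in CDH11+/+ and 60.8 to 91.8 CPM in CDH11-/- (-0.04 ± 0.34, adjusted p = 0.970). Ighd was at -0.11 ± 0.27 (0.896) and Ighg3 at 0.16 ± 0.81 (0.952), and Ighe was not tested.

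Ighm took 67.5%, 80.0%, 11.9% and 43.8% of heavy constant counts in CDH11+/+ replicates 1 to 4 and 5.56% to 10.40% in CDH11-/-, while Igha took 22.5%, 13.3%, 77.5% and 38.2% against 66.9% to 83.5%. CDH11+/+ replicates 1 and 2, nearly empty of V segment counts, thus had Ighm levels like those of the others. Set against the counts on class-switched constant genes (all heavy constants but Ighm and Ighd), V segment counts were nearly proportional: 10.8, 15.4, 12.6 and 13.9 Ighv counts per 100 in CDH11+/+ and 15.3, 13.2, 10.5 and 11.1 in CDH11-/-. The class-switched counts themselves ranged from 175 in CDH11+/+ replicate 2 to 19583 in CDH11-/- replicate 3.

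**Figure D5:**
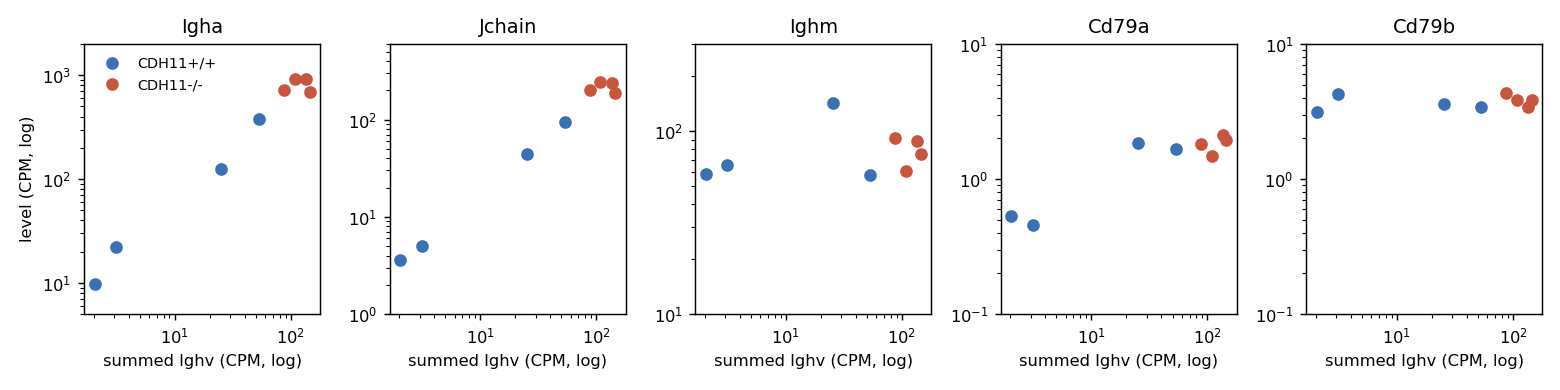
Levels of Igha, Jchain, Ighm, Cd79a and Cd79b (vertical axes, CPM, log scale) against the summed Ighv level (horizontal axes, CPM, log scale) in the 8 libraries, CDH11+/+ in blue and CDH11-/- in red. Igha and Jchain lie along a rising line over both groups, from CDH11+/+ replicate 2 at 9.71 and 3.57 CPM upward, while Ighm lies between 57.6 and 143 CPM. Of the B cell receptor chains, Cd79b lies between 3.11 and 4.31 CPM, and Cd79a is lowest in CDH11+/+ replicates 1 and 2 (0.461 and 0.531 CPM, against 1.48 to 2.13 CPM in the other 6 libraries).

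Light chain genes were lowest in the same libraries. Igkc, the kappa constant region, was at 18.1, 7.21, 210 and 112 CPM against 445, 460, 477 and 417 CPM (log2 difference 2.37 ± 0.97 SE, edgeR adjusted p = 0.347), and Jchain, which joins IgA and IgM subunits for secretion, at 5.07, 3.57, 94.2 and 44.0 against 189, 241, 246 and 202 CPM (2.57 ± 0.95, adjusted p = 0.306). Of 31 kappa V segments tested, 3 were called higher and 0 lower, beside 0.372% of all genes called higher. Named after their values were seen, they were Igkv1-110 (5.66 ± 0.67, edgeR adjusted p = 0.0275), Igkv10-96 (4.42 ± 0.53, 0.00932) and Igkv6-15 (2.67 ± 0.41, 0.0183). Kappa V counts were 90, 47, 1423 and 769 in CDH11+/+ and 4353, 4795, 5624 and 2553 in CDH11-/-. Kappa segments thus reached the filter mainly through CDH11-/-, and these calls are not read as support. Neither of the 2 lambda V segments tested was called. The heavy chain D segments had 0 counts in every library, and the J segments 0 to 11 counts per library.

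Markers of the B lineage and of other cells were taken as lists, and 0 genes of any list passed the test in either direction. The B cell list, with 8 of 14 genes tested, had a median log2 difference of 0.22 and summed to 53.1 to 65.0 CPM in CDH11+/+ and 58.9 to 84.9 CPM in CDH11-/-. Its genes of smallest p were Cd79a, a signalling chain of the B cell receptor (0.69 ± 0.41, edgeR adjusted p = 0.482), and Cd37 (0.29 ± 0.14, 0.396). Cd79a was at 0.461 and 0.531 CPM in CDH11+/+ replicates 1 and 2, the libraries lowest in Ighv, and at 1.48 to 2.13 CPM in the other 6, while its partner chain Cd79b, named after its values were seen, was at 3.11 to 4.31 CPM in all 8. The plasma cell list had a median of 0.26 over 13 tested genes, with 5 at an unadjusted p under 0.05, and sums of 454 to 511 and 496 to 531 CPM. Other kidney cells also express some of its genes. Within it Pou2af1, a transcriptional coactivator of B cells and plasma cells that is needed for antibody responses, was at 0.276, 0.228, 2.69 and 1.23 CPM against 5.03, 5.75, 7.12 and 4.31 CPM (2.31 ± 0.57, adjusted p = 0.130), and Derl3, a factor of the endoplasmic reticulum, at 0.96 ± 0.26 (0.133).

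In the recombination and class switch list, Rag2 and Vpreb2 were at 0 in every library, and Rag1, part of the recombinase, had 2 counts in all. These 3 were named after their values were seen. The 2 tested genes of that list were Ung (-0.46 ± 0.14, edgeR adjusted p = 0.183) and Vpreb1 (-0.29 ± 0.36, 0.771), with 800 and 77 counts in all. The germinal centre list had a median of 0.09 over 9 genes, with S1pr2 at 0.24 ± 0.09 (0.240) and Gcsam at 0.89 ± 0.32 (0.242).

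Lists of other cell types had medians on both sides of 0, and their part in the Ighv difference was not tested. The T cell list had a median of 0.15 over 12 genes (Lck 0.28 ± 0.11, edgeR adjusted p = 0.288, and Il7r 0.54 ± 0.23, 0.351), with sums of 179 to 231 and 196 to 307 CPM. The macrophage list had a median of 0.13 over 12 genes and sums of 1950 to 3006 and 2291 to 2889 CPM, with Cd14 at 0.96 ± 0.18 (0.0577) and Ccr2 at 0.85 ± 0.17 (0.0740). All 10 proximal tubule genes had values below 0, with a median of -0.75 and sums of 2594 to 8359 and 2325 to 6334 CPM, and Slc22a8 (-2.31 ± 0.40, 0.0621) and Slc22a6 (-2.07 ± 0.43, 0.105), transporters of organic anions, had the smallest p. Among immunoglobulin receptors and transporters, 8 tested with a median of -0.03, Fcgrt, the neonatal Fc receptor, was at -0.21 ± 0.08 (0.298) and Fcgr3 at 0.14 ± 0.18 (0.783).

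The tested genes without an immunoglobulin name whose log2 levels were most like the summed Ighv level over the 8 libraries were, by Pearson's r, Jchain (0.995), Pou2af1 (0.987), Gng7 (0.983), Spink6 (0.982) and Gm8615 (0.977). These values are a description over 8 libraries that share a group difference and the low CDH11+/+ replicates 1 and 2. The levels differ in kind: Gng7 ranged only from 2.43 to 3.95 CPM, while Spink6 was at 0 in CDH11+/+ replicates 1 and 2 and at 1.16 to 5.27 CPM in the other 6 libraries. Gm8615 was at 0.553, 0.986, 6.32 and 3.70 CPM in CDH11+/+ and 12.7 to 15.9 CPM in CDH11-/-.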

How the data were processed

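Kidney RNA of 8 mice was sequenced from directional libraries, per the labels' protocols, and the authors deposited a table of read counts per gene and a table of normalized signal values per gene. The submitters' processing notes name DRAGEN, DESeq2 and mm10. The labels give no strand setting for the counting step. The normalized signal deposited by the authors was used only as an alternative (limma on log2 of the value plus 1, and as offsets). Identifiers were named from GENCODE M21, which matched 42170 of 42256. Total counts were 10675309 to 18539479 per library.

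Differences are libraries labelled CDH11-/- minus CDH11+/+, from edgeR 4.0.16 (R 4.3.3): filterByExpr, TMM factors and the robust quasi-likelihood test over all 15852 genes passing the filter, with Benjamini-Hochberg adjusted p under 0.05 as a call. CPM use TMM factors. The script was tested on simulated data. Summed levels, presence, families and zones were given no test. V exons were compared by global alignment with Biopython 1.88. The planned motif search in Ighv promoters was not run, as those sequences were not used here. Named Ighv segments are those called, the 10 with most counts and the highest of each library. Of each marker list, the 2 genes of smallest p are named, and others are said to be named after their values were seen. Some genes of the lists are not reported here. Members, lists and tests were chosen with earlier results of these data known. Alternatives were DESeq2 1.42.0, limma 3.58.1, other scalings and filters, and leaving out each library. The p-values measure the spread between these libraries.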

Additional observations from a re-analysis of the deposited data

Results flagged for a closer look

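In groups of 4 libraries, 36 sets of values were examined for a library that stands apart. The rule was a gap to the nearest other above Dixon's 95% critical share of the range, and 4 cases were found. Chance alone gives such a gap in about 1 in 20 groups of normally distributed values. Many of these values rest on few counts, and the sets share libraries, so that rate need not hold here. Ighv5-17 was at 8.69 CPM in CDH11+/+ replicate 3, against 0 to 1.46 CPM in the other 3 CDH11+/+ libraries. Ighv1-9 was at 14.8 CPM in CDH11-/- replicate 1, against 0.422 to 1.81 CPM in the others of its group, and Ighv8-8 at 18.2 CPM in CDH11-/- replicate 3, against 1.87 to 2.68 CPM. In each of these 3 cases a single mouse supplied most of its group's counts on the segment. Ighv1-55 was at 0 CPM in CDH11+/+ replicate 2, against 0.077 to 0.0921 CPM in the other 3, which is a gap of 1 count.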

How the results depend on the processing

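Ighv1-81, Ighv1-82 and Ighv1-55 kept their direction and call in all 18 alternatives, with log2 differences of 6.41 to 7.87, 4.43 to 6.32 and 4.35 to 5.54. Ighv8-12 kept its direction (4.23 to 6.04) and lost its call in 4 of them. The number of called Ighv segments was 4 in the reported fit, 9 with no filter on low counts, 7 with a total of 10 counts as the filter, 6 with DESeq2, and 3 to 5 when single libraries were left out. The number of genes called was 114, and it was 208 with no filter, 535 with DESeq2, 54 with limma on the authors' normalized values, 26 to 1019 when single libraries were left out (26 without CDH11+/+ replicate 4 and 1019 without CDH11+/+ replicate 1), and, in 2 alternatives chosen after seeing the data, 204 without CDH11+/+ replicates 1 and 2 and 50 with the authors' factors as offsets; the cause was not tested. Cdh11 was at 0.69, and at 0.26 with limma on the authors' values, 0.24 with the authors' factors as offsets (adjusted p = 0.545) and 0.64 to 0.80 when single libraries were left out. The summed Ighv level, 2.50 on the log2 scale, was 2.12 to 3.55 when single libraries were left out and 1.60 without CDH11+/+ replicates 1 and 2. Ighv5-17 reversed to -0.18, -0.28 and -0.07 without CDH11+/+ replicate 1, 2 or 4, to -0.68 without CDH11-/- replicate 1 and to -0.78 without CDH11+/+ replicates 1 and 2, and was never called. No paired analysis was possible because the labels give the groups no shared replicate numbers, and those used here follow accession order and tie no mouse of one group to a mouse of the other. With 34 and 27 Ighv counts, CDH11+/+ replicates 1 and 2 cannot show which segments were in use, and 49 of 70 members had too few counts for the reported fit.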
